A study of Mus musculus with 12 samples.

Results

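Subcutaneous Myc-CaP tumors from mice given YJ1206 were compared with tumors from mice given vehicle. The rule took the tumor samples of the series, which are 6 of its 12 samples, 3 labelled vehicle and 3 labelled YJ1206. The tumor table lists 34508 genes, and 15558 of them had enough counts to be tested. Myc-CaP is a mouse prostate carcinoma line from a mouse that carried a human MYC transgene in the prostate, and both groups grew from this line under the skin of male FVB mice. Treated mice were dosed orally with YJ1206 at 100 mg/kg on 3 days of each week. Vehicle mice received the carrier of PEG400, Cremophor EL and PBS. The age of the mice, the length of treatment and the mouse behind each library are not given in the sources used here. Each library is bulk RNA of tumor tissue, so tumor cells and host cells were read together. Fewer cells of a type and less RNA per cell therefore cannot be told apart.

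YJ1206 is an orally available PROTAC, a bifunctional molecule that binds CDK12 and CDK13 and recruits a ubiquitin ligase to them, so that the proteasome destroys both. CDK12 and CDK13 bind cyclin K and phosphorylate the tail of RNA polymerase II, which keeps the polymerase elongating and sustains full-length transcripts of many genes of the DNA damage response. Such a compound acts on protein, so transcripts of its targets need not fall.

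Total estimated counts ranged from 15391684 to 26928447 per library, at which 3 counts equal 0.113 to 0.194 CPM. CPM are counts scaled to a fixed library total, here after TMM scaling, which assumes that most genes do not change. A gene is called where edgeR's quasi-likelihood test gave an adjusted p under 0.05 (Benjamini-Hochberg over all genes tested), and lists are groups of genes with a shared role. Of all genes tested, 11.9% were called higher and 14.9% lower in YJ1206 tumors, and the median log2 fold change was 0.0091. In 21.8% of genes every YJ1206 library was above every vehicle library, and in 22.8% every YJ1206 library was below.

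The libraries of a group differed in ways that touch every result. On the first principal component, which held 66.8% of the variance, the YJ1206 libraries scored 23.0 to 33.3 and the vehicle libraries -41.2, -10.7 and -30.8, so vehicle 2 lay nearest to the treated tumors. Vehicle 2 correlated more closely with YJ1206 2 (Pearson r 0.9845 across genes) than with vehicle 1 (0.9804). Library 3 of each group lay between libraries 1 and 2. Among genes at least 2-fold apart in libraries 1 and 2, it had a middle value in 98.9% of 531 genes for vehicle and in 97.5% of 204 genes for YJ1206. As a weighted sum of libraries 1 and 2, with 59% of vehicle 1 or 37% of YJ1206 1, it was matched with a median chi-square of 0.681 and 0.732, where counting error alone gives 0.455 and libraries 1 and 2 gave 5.14 and 2.22. Whether library 3 came from a separate tumor was not tested. The p-values therefore measure the spread among these libraries, which may hold fewer than 3 independent tumors a group.

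With libraries 1 and 2 of each group only, 1 gene was called by edgeR, and at an unadjusted p under 0.05 8.54% of genes were higher and 11.1% were lower. DESeq2 on the same 4 libraries called 1228 genes. Left out in turn, vehicle 3, YJ1206 2 and YJ1206 3 lowered the edgeR calls from 4176 to 1938, 2739 and 1877. In each of these fits every called gene of the full comparison that could be fitted kept its direction. Those genes were called on the same libraries, so a kept direction is no independent support. Below, list counts are given for all 6 libraries and, at the unadjusted p, for libraries 1 and 2.

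Skeletal muscle RNA was far higher in vehicle 1 and vehicle 3 than in the other libraries, and vehicle 2 was still above the YJ1206 tumors. The summed level of 15 muscle markers was 2845, 178 and 1786 CPM in vehicle libraries 1 to 3 and 54.3, 56.0 and 57.8 CPM in the YJ1206 libraries. Myh4, a fast muscle myosin, had 6034, 7 and 2522 counts with vehicle and 2, 2 and 1 with YJ1206, and fell outside the filter on low counts. Fibroblast markers followed the muscle order among vehicle libraries, with 2470, 889 and 1831 CPM. Vehicle 2 alone was therefore also set against the 3 YJ1206 libraries, an alternative added after the data were seen, and its values are given beside several lists below.

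Prostate epithelial markers were checked against the label. Krt8, a luminal keratin, was at 68.9 to 95.8 CPM over the 6 libraries, whereas the epithelial adhesion gene Epcam had 1 to 4 counts per library.

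**Figure D1:**
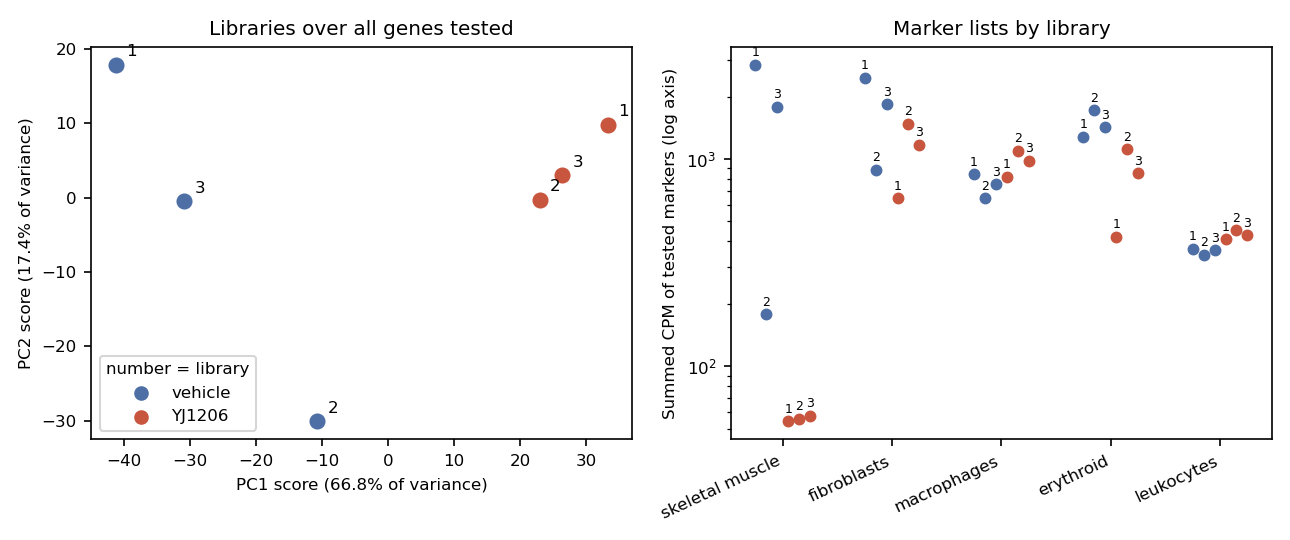
Left, scores of the 6 tumor libraries on the first 2 principal components of log2(CPM + 1) over all genes tested, with the library number beside each point. Right, summed CPM of the tested markers of 5 cell types on a log axis. Vehicle 2 lies apart from vehicle 1 and 3 and has 178 CPM of muscle markers against 2845 and 1786.

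Transcripts of the kinases that YJ1206 degrades were not called lower. Cdk12 (ENSMUSG00000003119.14, GRCm38 chr11:98203059-98278504, forward strand) was at 147, 157 and 144 CPM in vehicle tumors and at 206, 179 and 186 CPM in YJ1206 tumors. The groups did not overlap, and the log2 fold change was 0.35 (SE 0.070, adjusted p = 0.0108, edgeR). The call was lost without vehicle 3, where the adjusted p was 0.0635. Cdk13 was at 126, 117 and 125 CPM against 134, 123 and 127, overlapping groups with a log2 fold change of 0.06 (adjusted p = 0.465, edgeR) that turned to -0.10 on the deposited TPM. Ccnk, which encodes cyclin K, gave -0.11 and was not called (adjusted p = 0.246, edgeR).

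Of 18 transcription kinases, cyclins and their partners, 3 were called higher and 1 lower, with a median log2 fold change of -0.06. These were 16.7% and 5.56% of the list, against 11.9% and 14.9% of all genes. In libraries 1 and 2 the unadjusted test gave 1 higher and 1 lower. Of the 3, 0 were still called without vehicle 3, and 1 without YJ1206 1 or YJ1206 3. The gene called lower was Larp7, whose protein binds the 7SK RNA that holds the elongation kinase P-TEFb inactive. Larp7 had 47.1, 49.0 and 40.1 CPM with vehicle and 31.6, 33.3 and 31.4 CPM with YJ1206, a log2 fold change of -0.50 (adjusted p = 0.00771, edgeR).

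RNA-processing genes were lower. Of 32 SR and hnRNP splicing factors, 22 were called lower and 0 higher, with a median of -0.32, against 14.9% of all genes lower. In libraries 1 and 2, 16 of them were lower and 0 higher. Hnrnpd, which binds AU-rich RNA, changed most, with 222, 205 and 217 CPM in vehicle tumors and 121, 133 and 122 CPM in YJ1206 tumors. Srsf1 and Hnrnpa2b1, general splicing regulators, fell by 0.49 and 0.52 on the log2 scale (adjusted p = 0.00213 and 0.00473, edgeR).

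Of 33 genes for cleavage, polyadenylation and the Integrator complex, which end transcripts, 11 were called lower and 0 higher, with a median of -0.19. Cpsf2, a cleavage factor subunit, was at 111, 113 and 113 CPM against 68, 71.3 and 71.0 CPM, so the groups were far apart relative to their spread (log2 fold change -0.68, SE 0.052, adjusted p = 0.000718, edgeR). Cstf2 fell by 0.52 and Cstf3 by 0.61 on the same scale. Without vehicle 3, YJ1206 2 or YJ1206 3 the number called lower in this list was 3, 7 and 3.

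Homologous recombination and Fanconi genes, which repair double-strand breaks and interstrand crosslinks, fell. Of 41 genes tested, 31 were called lower and 0 higher, and the median was -0.52. In libraries 1 and 2, 30 of them were lower. Brca2, a mediator of homologous recombination, had 65.3, 68.8 and 65.1 CPM with vehicle and 19.5, 31.5 and 28.4 CPM with YJ1206. Every YJ1206 library was under the lowest vehicle library, and YJ1206 1 was lowest (log2 fold change -1.33, SE 0.162, adjusted p = 0.00226, edgeR). Brca1 had 72.7, 57.0 and 61.8 CPM against 24.5, 37.5 and 32.0 CPM, a log2 fold change of -1.03 (adjusted p = 0.00491, edgeR). Fancd2, the Fanconi protein that is ubiquitinated at crosslinks, fell by 1.39 on the log2 scale, and the nuclease subunit Eme1 fell by 1.40. These 4 genes were still called without any 1 library.

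Genes of mitosis and of DNA replication fell further. All 63 tested genes of mitosis and the spindle were called lower, with a median of -1.50, and all 63 were also lower at the unadjusted p in libraries 1 and 2 (median -1.56). Leaving out any 1 library left 57 to 63 of them called. With vehicle 2 as the only control the median was -1.49, and 50 were called lower.

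Mki67 (ENSMUSG00000031004.8, chr7:135689784-135716361, reverse strand), which encodes the proliferation marker Ki-67, had 716, 653 and 677 CPM in vehicle tumors. In YJ1206 tumors it had 108, 283 and 231 CPM, so YJ1206 1 was the lowest library and no value reached the vehicle range. The log2 fold change was -1.72 (SE 0.306, adjusted p = 0.00725, edgeR), or 3.29-fold lower. Top2a, the topoisomerase that untangles mitotic chromosomes, had 536, 464 and 503 CPM against 103, 219 and 175 CPM. Ccnb1, the mitotic cyclin, had 108, 114 and 109 CPM against 17.2, 44.9 and 34.9 CPM. In both genes YJ1206 1 was again lowest and the groups did not overlap. The kinases and centromere proteins Aurkb, Bub1, Cenpa and Cenpf fell by 1.81 to 1.92 on the log2 scale (adjusted p 0.00445 to 0.0086, edgeR).

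Of 52 DNA replication genes, 50 were called lower and 0 higher, with a median of -0.94, and 49 were lower in libraries 1 and 2. Rrm2, a subunit of the enzyme that makes deoxyribonucleotides, fell most, from 259, 332 and 286 CPM to 52.6, 101 and 77.7 CPM. Dbf4, the activator of the kinase that fires replication origins, had 83.7, 84.0 and 82.1 CPM against 25, 30.6 and 28.2 CPM, with less spread than any mitotic gene above (log2 fold change -1.57, SE 0.0843, adjusted p = 0.000504, edgeR). On the log2 scale the helicase subunits Mcm5 and Mcm2 fell by 1.36 and 0.84. The replication factor Mcm10 fell by 1.33 and the sliding clamp Pcna by 0.82. Of 8 replication-dependent histone genes tested, 6 were called lower, with a median of -1.19. These are near-identical copies, and estimated counts can move between them, so single histone genes are uncertain.

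Among regulators of entry into S phase, more were called lower than higher. Of 31 tested, 14 were called lower and 3 higher, with a median of -0.41. These were 45.2% and 9.68% of the list, against 14.9% and 11.9% of all genes. Without vehicle 3 or YJ1206 3, 8 were called lower and 1 higher, and without vehicle 2, 5 were higher. Ccna2, a cyclin of S phase and G2, had 189, 174 and 180 CPM against 30.0, 77.5 and 55.8 CPM (edgeR log2 fold change -1.73, adjusted p = 0.00603). Ccnd1, the cyclin D that growth signals induce, fell by 0.57, with 325, 365 and 341 CPM against 227, 236 and 234 CPM. Rb1, the brake on E2F, had 36.5, 37.7 and 37.2 CPM against 36.0, 35.0 and 35.5 CPM and was not called (adjusted p = 0.490, edgeR). Cdkn1a, which encodes the cyclin-dependent kinase inhibitor p21, had 45.1, 48.3 and 47.2 CPM against 49.9, 48.9 and 47.5 CPM, overlapping groups (adjusted p = 0.550, edgeR).

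Known motifs of these genes were counted in their promoters. All tested members of a list were included whatever their change, so the shares are no support for the changes. Promoter sequences are from RefSeq (GRCm38.p6) and run from 250 bases before to 50 bases after each start. Every motif was searched on both strands in 32851 promoters of 27025 genes. The cell cycle homology region, CHR, searched as TTTGAA or TTCGAA, is a site in genes expressed in G2 and mitosis. It was found in 44 of 60 promoters of 55 mitosis genes (73.3%), against 19.2% of all promoters and 15.1% of promoters of the genes tested. The CHR motif and the CArG box used below were chosen after the values were seen. The motif counts for the G1/S regulators and, further below, for the interferon-inducible GTPases were also not among those planned. An E2F site, searched as TTTCCCGC or TTTGGCGC, was found in 13 of 48 promoters of 41 DNA replication genes (27.1%), against 1.56% of all promoters and 2.57% of promoters of the genes tested. Among the G1/S regulators 6 of 32 promoters held it (18.8%). A match is a description of the sequence and not a measured binding site. The 250 bases before the start of Mki67 (chr7:135716380-135716629, reverse strand) hold 2 CHR matches, in capitals. They are followed by stretches around the match nearest the start for Top2a (chr11:99024190-99024232, reverse strand), and around an E2F match for Mcm5 (chr8:75109340-75109387) and Cdc6 (chr11:98907993-98908040), both on the forward strand.
Mki67: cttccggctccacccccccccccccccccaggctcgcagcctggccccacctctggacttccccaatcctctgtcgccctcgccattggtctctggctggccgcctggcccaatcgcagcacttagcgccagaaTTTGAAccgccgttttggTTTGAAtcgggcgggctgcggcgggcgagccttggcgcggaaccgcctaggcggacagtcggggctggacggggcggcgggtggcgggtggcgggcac
Top2a: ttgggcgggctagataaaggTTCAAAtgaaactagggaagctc
Mcm5: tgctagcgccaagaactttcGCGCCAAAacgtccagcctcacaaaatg
Cdc6: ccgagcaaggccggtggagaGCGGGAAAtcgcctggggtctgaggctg
In Top2a, Mcm5 and Cdc6 the capitals read as the motif on the opposite strand. Cdc6, which loads the replicative helicase, fell by 0.77 on the log2 scale, and its call was lost without vehicle 3 or YJ1206 3 (adjusted p at most 0.0762, edgeR).

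**Figure D2:**
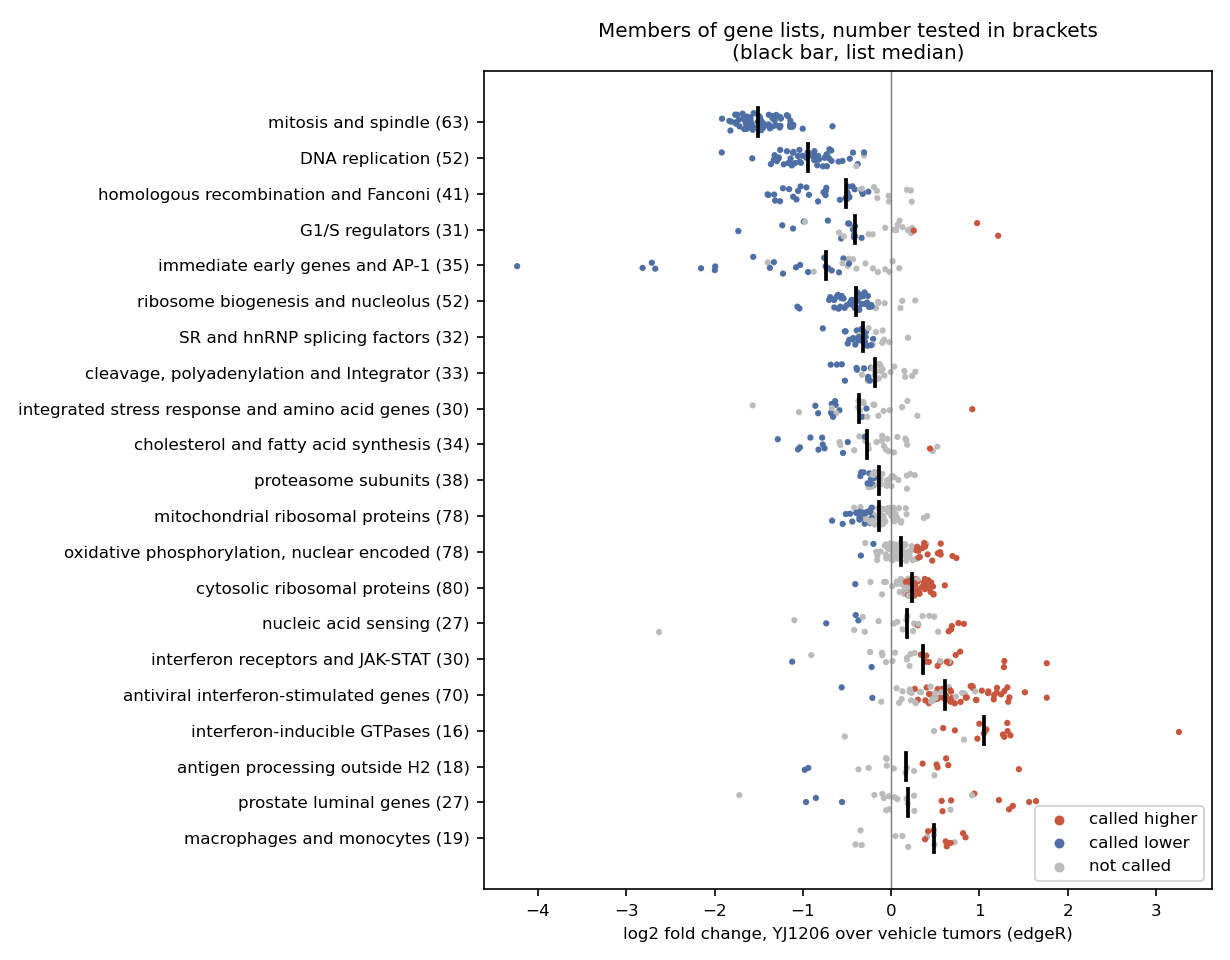
Log2 fold change of each tested member (edgeR, YJ1206 over vehicle) in 21 gene lists, colored by call, with the list median as a black bar and the number of genes tested in brackets. All 63 mitosis genes lie below 0, and 13 of 16 interferon-inducible GTPase genes were called higher.

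Immediate early genes, which growth factor signaling switches on within minutes through SRF and other factors, were lower. Of 35 tested, 21 were called lower and 0 higher, with a median of -0.74, and 21 were lower in libraries 1 and 2. Without YJ1206 3, 13 were called lower. Egr1, a zinc finger factor of this class, had 222, 219 and 216 CPM in vehicle tumors and 12.6, 10.3 and 12 CPM in YJ1206 tumors. The values were nearly equal within each group, and the log2 fold change of -4.24 (SE 0.0845, adjusted p = 2.09e-06, edgeR) is 18.9-fold lower. Egr1 was the gene called with libraries 1 and 2 alone.

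The nuclear receptor gene Nr4a1 had 79.0, 138 and 103 CPM with vehicle and 14.5, 16.3 and 14.5 CPM with YJ1206 (log2 fold change -2.82, SE 0.203, adjusted p = 0.000629, edgeR). Its relative Nr4a3 fell by 2.71 and the AP-1 subunit Fosl1 by 2.67. Fos was an exception, with 17.2, 120 and 58.3 CPM in vehicle tumors and 25.5, 23.7 and 25.3 CPM in YJ1206 tumors. The lowest Fos value was vehicle 1, so the groups overlapped (adjusted p = 0.117, edgeR).

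Other genes of the same kind of response were also lower. Ptgs2, which encodes the prostaglandin synthase COX-2, had 198, 360 and 261 CPM in vehicle tumors and 58.6, 43.3 and 43.0 CPM in YJ1206 tumors (log2 fold change -2.50, SE 0.232, adjusted p = 0.00112, edgeR). Ccn1, a secreted matricellular protein, had 175, 238 and 196 CPM against 84.9, 95.9 and 91.0 CPM, a log2 fold change of -1.16. The groups of Ptgs2 and Ccn1 did not overlap in spite of the wide vehicle range. Socs3, an inhibitor of cytokine receptors, fell by 1.12 (adjusted p = 0.00479, edgeR). A CArG box, the site of SRF made of CC, 6 bases that are A or T, and GG, was found in 7 of 35 promoters of the immediate early list (20.0%) and in 1.63% of all promoters.

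Myc and the genes for making ribosomes were lower, while transcripts of the ribosomal proteins themselves were higher. Myc had 1257, 1436 and 1320 CPM in vehicle tumors and 896, 867 and 904 CPM in YJ1206 tumors, a log2 fold change of -0.59 (SE 0.063, adjusted p = 0.00167, edgeR). Whether reads of the human transgene were counted as mouse Myc was not tested. Mxd4, a MAX partner that opposes MYC, rose from 115, 145 and 121 CPM to 245, 231 and 234 CPM (edgeR log2 fold change 0.90, adjusted p = 0.00135). Of the 11 tested genes of the MYC and MAX network, 1 was called higher and 2 lower.

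Of 52 ribosome biogenesis and nucleolar genes, 45 were called lower and 0 higher, with a median of -0.40, and 37 were lower in libraries 1 and 2. Without YJ1206 3 the number was 29. Tcof1, which helps RNA polymerase I transcribe ribosomal RNA, had 144, 105 and 130 CPM against 52.9, 64.3 and 64.7 CPM (edgeR log2 fold change -1.06, adjusted p = 0.00237). Nucleolin, encoded by Ncl, was almost the same within groups, at 1607, 1607 and 1613 CPM against 1193, 1192 and 1183 CPM. The log2 fold change of Ncl was -0.44 (SE 0.0458, adjusted p = 0.00158, edgeR). Lyar, Mybbp1a and Npm1 fell by 1.04, 0.70 and 0.33.

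Of 80 cytosolic ribosomal protein genes, 49 were called higher and 1 lower, against 11.9% of all genes higher, with a median of 0.24. In libraries 1 and 2, 23 were higher and 1 lower. Rplp1, an acidic protein of the large subunit, rose most among the named ones, from 655, 738 and 691 CPM to 1040, 1083 and 1056 CPM (log2 fold change 0.61, SE 0.060, adjusted p = 0.00128, edgeR). These changes are small. Without vehicle 3, YJ1206 2 or YJ1206 3 the number called higher was 16, 27 and 19, and in the fits on TPM it was 32 with either pseudocount. Ribosomal protein genes have many processed pseudogenes that share reads with them.

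Mitochondrial ribosomal proteins went the other way, with 20 of 78 called lower, 0 higher and a median of -0.14. Mrps2, a small-subunit protein, had 37.9, 38.7 and 35.1 CPM against 22.7, 27.4 and 26.2 CPM. Without any 1 of 5 libraries (all but vehicle 2) the number was 5 to 13. Of 78 nuclear genes of oxidative phosphorylation, 18 were called higher and 2 lower, with a median of 0.11 that became -0.03 with vehicle 2 as the only control. Ndufa1, a subunit of complex I, rose from 36.2, 41.8 and 41.1 CPM to 64.5, 68.5 and 66.0 CPM (edgeR log2 fold change 0.74, adjusted p = 0.00142). The number called higher was 31 without vehicle 2, and 8, 11, 10 and 7 without vehicle 3 and YJ1206 1, 2 and 3. Of the 13 genes of the mitochondrial genome 3 were called higher, with 0 left without vehicle 3 or YJ1206 3, 1 without YJ1206 1 or YJ1206 2, and 5 without vehicle 1. Their median was 0.19, and with vehicle 2 as the only control it was 0.42 with 9 called higher and 1 lower. Of 38 proteasome subunits 9 were called lower and 0 higher, with a median of -0.14, and 2 to 4 without vehicle 3 or any 1 YJ1206 library. With vehicle 2 as the only control 14 were lower and the median was -0.26.

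Stress and metabolic lists differed in direction. Of 30 genes of the integrated stress response and amino acid supply, 11 were called lower and 1 higher, with a median of -0.36 that shrank to -0.09 with vehicle 2 as the only control. Asns, asparagine synthetase, had 203, 168 and 190 CPM against 112, 130 and 121 CPM (edgeR log2 fold change -0.63, adjusted p = 0.00324), and Slc7a1, an arginine transporter, fell by 0.83. Atf4, the central factor of this response, had 207, 134 and 179 CPM against 112, 120 and 114 CPM. Its call (adjusted p = 0.0234) was lost without vehicle 3 or any 1 YJ1206 library (at most 0.0916, edgeR). The list's count of lower calls was 21 without vehicle 2, and 4, 5, 6 and 4 without vehicle 3 and YJ1206 1, 2 and 3.

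Of 34 genes of cholesterol and fatty acid synthesis, 11 were called lower and 1 higher, with a median of -0.28. Sqle, which encodes squalene epoxidase, had 102, 91.8 and 98.3 CPM against 52.5, 51.3 and 51.0 CPM (log2 fold change -0.91, SE 0.062, adjusted p = 0.000629, edgeR). Idi1 and Msmo1, enzymes of the same pathway, fell by 1.28 and 1.05. With vehicle 2 as the only control 20 genes were lower and the list median was -0.55. The number called lower was 7 without vehicle 3, 7 without YJ1206 1 and 6 without YJ1206 3. Without vehicle 2, 12 were lower and 7 higher, and the median was -0.08.

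Chaperones moved in both directions. Of 41 chaperone genes of the cytosol, mitochondria and endoplasmic reticulum (ER) and their regulators, 11 were called higher and 9 lower. Without vehicle 3 or YJ1206 3 these were 7 and 4, without YJ1206 1 or YJ1206 2 the lower count was 5, and without vehicle 2 it was 15. Hsp90aa1, the inducible cytosolic HSP90, had 1192, 1152 and 1171 CPM against 823, 848 and 828 CPM (log2 fold change -0.49, SE 0.048, adjusted p = 0.0012, edgeR). Pdia6, a disulfide isomerase of the ER, had 484, 529 and 502 CPM against 809, 748 and 777 CPM, a log2 fold change of 0.62. Xbp1, the factor of the unfolded protein response, rose by 0.63 and the ER chaperone Hspa5 by 0.37. Of 29 NRF2 antioxidant genes 5 were called higher and 5 lower, 17.2% each way, against 11.9% and 14.9% of all genes. Left-out libraries gave 2 or 3 higher (vehicle 3, YJ1206 2 and YJ1206 3). They gave 1 to 8 lower (fewest without YJ1206 3, most without vehicle 2). Of 38 hypoxia and glycolysis genes 0 were called higher and 2 lower, at a median of -0.08.

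Cell death regulators were called about as often as all genes, and p53 targets had no common direction. Bmf, a BH3-only protein that triggers apoptosis, had 26.8, 27.1 and 23.5 CPM in vehicle tumors and 98.0, 82.0 and 84.9 CPM in YJ1206 tumors. The groups were well separated, with a log2 fold change of 1.77 (SE 0.0958, adjusted p = 0.000504, edgeR). Bcl2l11, which encodes the related protein BIM, rose by 0.58, from 59.6, 69.7 and 63.4 CPM to 104, 89.3 and 94.9 CPM (adjusted p = 0.00374, edgeR). Of 18 tested BCL2 family genes, 3 were called higher and 2 lower (16.7% and 11.1%, against 11.9% and 14.9% of all genes). In this list 5 were higher without vehicle 2, and 0 were lower without vehicle 3 or any 1 YJ1206 library.

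Of 35 p53 targets 5 were called higher and 8 lower (14.3% and 22.9%), with a median of -0.04. Without vehicle 3 or any 1 YJ1206 library 1 or 2 were higher and 5 lower. The strongest decreases were Gtse1, Psrc1 and Ckap2 (log2 fold changes of -1.63, -1.54 and -1.50), which encode proteins of the mitotic spindle and microtubules. Mdm2, the ubiquitin ligase of p53, had 76.6, 70.9 and 69.3 CPM against 76.0, 75.7 and 75.8 CPM and was not called (adjusted p = 0.438, edgeR). Trp53 fell by 0.50, from 89.0, 76.5 and 82.0 CPM to 56.9, 60.0 and 58.1 CPM (adjusted p = 0.00364, edgeR).

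Interferon-stimulated genes were higher in YJ1206 tumors. These genes answer type I and type II interferon, which signal through JAK kinases and STAT factors. In tumors they can be expressed by the tumor cells or by host cells, which bulk RNA does not separate. Of 70 antiviral interferon-stimulated genes tested, 42 were called higher and 2 lower, with a median of 0.61. In libraries 1 and 2, 34 were higher and 1 lower. Without vehicle 3, YJ1206 1 and YJ1206 3 the number called higher was 20, 27 and 20. With vehicle 2 as the only control 23 were higher and the median was 0.48.

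Among sensors of foreign nucleic acid, which act upstream of interferon, 6 of 27 were called higher and 3 lower. These were 22.2% and 11.1% of the list, against 11.9% and 14.9% of all genes. Without vehicle 3, YJ1206 2 or YJ1206 3 the number higher was 2 or 3, and the number lower went from 0 (without vehicle 3, YJ1206 1 or YJ1206 3) and 1 (without vehicle 1 or YJ1206 2) to 6 (without vehicle 2). Tlr3, the endosomal receptor for double-stranded RNA, had 21.3, 20.7 and 19.1 CPM against 37.4, 32.0 and 34.4 CPM (log2 fold change 0.76, SE 0.091, adjusted p = 0.00213, edgeR). Ddx58, which encodes the RNA sensor RIG-I, rose by 0.68. Cgas, the sensor of cytosolic DNA, went from 17.4, 17.9 and 17.4 CPM to 12.1, 14.2 and 14.4 CPM. The call of Cgas (log2 fold change -0.37, adjusted p = 0.0323) was lost without vehicle 1, vehicle 3 or any 1 YJ1206 library (at most 0.103, edgeR). Tmem173, which encodes STING, had 14.8, 13.5 and 12.3 CPM against 16.8, 14.7 and 17.4 CPM, overlapping groups (adjusted p = 0.132, edgeR). Tbk1, its kinase, gave a log2 fold change of 0.17 (adjusted p = 0.0766, edgeR).

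In the JAK-STAT pathway 14 of 30 genes were called higher and 2 lower, with a median of 0.37. The number called higher was 9 without vehicle 3, YJ1206 1 or YJ1206 3. Stat2 (ENSMUSG00000040033.16, chr10:128270559-128292849, forward strand), the STAT of type I interferon, had 32.4, 38.2 and 33.2 CPM against 90.0, 79.3 and 83.8 CPM. The groups were separate, with a log2 fold change of 1.28 (SE 0.0878, adjusted p = 0.000629, edgeR), or 2.43-fold. Usp18, which removes ISG15 and limits interferon signaling, had 2.12, 6.26 and 4.14 CPM against 16.6, 13.2 and 13.2 CPM, a log2 fold change of 1.76 (adjusted p = 0.00944, edgeR). Cish, a feedback inhibitor of cytokine receptors, rose by 1.28. The interferon receptor gene Ifnar1 gave a log2 fold change of 0.21 (adjusted p = 0.0807, edgeR).

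Of the antiviral effectors, Oasl2, of the oligoadenylate synthetase family, had 7.75, 9.53 and 7.37 CPM in vehicle tumors and 22.4, 15.6 and 20.9 CPM in YJ1206 tumors (log2 fold change 1.25, SE 0.170, adjusted p = 0.00311, edgeR). Oas2 and the GTPase Mx2 both rose by 1.2, and their calls were lost without vehicle 3, YJ1206 1 or YJ1206 3 (adjusted p at most 0.0837, edgeR). Ifit1 went from 3.92, 3.19 and 3.10 CPM to 5.19, 6.76 and 7.17 CPM, and its call was lost without vehicle 3 or YJ1206 3 (at most 0.0577, edgeR). Isg15, the ubiquitin-like modifier, was at 6.80, 11.1 and 10.5 CPM against 17.1, 11.9 and 14.2 CPM, groups that just did not overlap (adjusted p = 0.0748, edgeR).

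The interferon-inducible GTPases, which attack the vacuoles of intracellular parasites, had the highest median of the interferon lists. Of 16 tested, 13 were called higher and 0 lower, with a median of 1.06, and 12 were higher in libraries 1 and 2. Without vehicle 3 or YJ1206 3 the number was 8 and 5. Tgtp1 (ENSMUSG00000078922.9, chr11:48985327-48994172, reverse strand) had 1.76, 10.8 and 4.26 CPM with vehicle and 60.2, 50.2 and 55.9 CPM with YJ1206. Every YJ1206 value was above the highest vehicle value, that of vehicle 2 (log2 fold change 3.26, SE 0.519, adjusted p = 0.00494, edgeR). Irgm2 had 2.93, 4.95 and 4.26 CPM against 9.67, 10.2 and 10.4 CPM, a log2 fold change of 1.32. Iigp1 rose by 1.28 (adjusted p = 0.006, edgeR), and the calls of Igtp and Gbp2 (log2 fold changes 1.27 and 1.05) were lost without vehicle 3 or YJ1206 3, that of Gbp2 also without YJ1206 1. Several of these genes have near-identical neighbors, such as Tgtp2 for Tgtp1, and estimated counts can be split between copies.

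The core of the interferon-stimulated response element, searched as GAAANNGAAA, was found in 27 of 68 promoters of 54 antiviral genes (39.7%) and in 9 of 11 promoters of 10 GTPase genes (81.8%), against 3.44% of all promoters and 3.13% of promoters of the genes tested. Stretches around the match nearest the start are shown for genes named above, with the match in capitals, because Tgtp1, Irgm2 and Igtp have nearly the same bases before the motif, which Gbp2 of the same list does not. They are Tgtp1 (chr11:48992294-48992343, reverse strand), Irgm2 (chr11:58214893-58214942, forward), Igtp (chr11:58199502-58199551, forward), Gbp2 (chr3:142620584-142620633, forward), Stat2 (chr10:128270256-128270305, forward), Ifit1 (chr19:34640784-34640833, forward) and Isg15 (chr4:156200855-156200904, reverse).
Tgtp1: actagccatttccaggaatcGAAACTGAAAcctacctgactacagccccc
Irgm2: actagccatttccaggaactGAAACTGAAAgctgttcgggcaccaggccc
Igtp: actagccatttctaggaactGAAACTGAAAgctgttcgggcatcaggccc
Gbp2: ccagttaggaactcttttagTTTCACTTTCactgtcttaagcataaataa
Stat2: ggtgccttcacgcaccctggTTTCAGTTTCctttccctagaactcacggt
Ifit1: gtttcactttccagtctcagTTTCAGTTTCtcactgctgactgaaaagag
Isg15: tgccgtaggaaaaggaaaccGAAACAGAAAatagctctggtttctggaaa
In Gbp2, Stat2 and Ifit1 the motif is on the opposite strand. The matches began 34 to 222 bases before the start, the last being Stat2. These are RefSeq starts, which can differ from the gene coordinates given with the gene identifiers. The stretches of Tgtp1, Irgm2 and Cdc6 lie inside the coordinates of the gene, and that of Gbp2 lies partly inside.

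**Figure D3:**
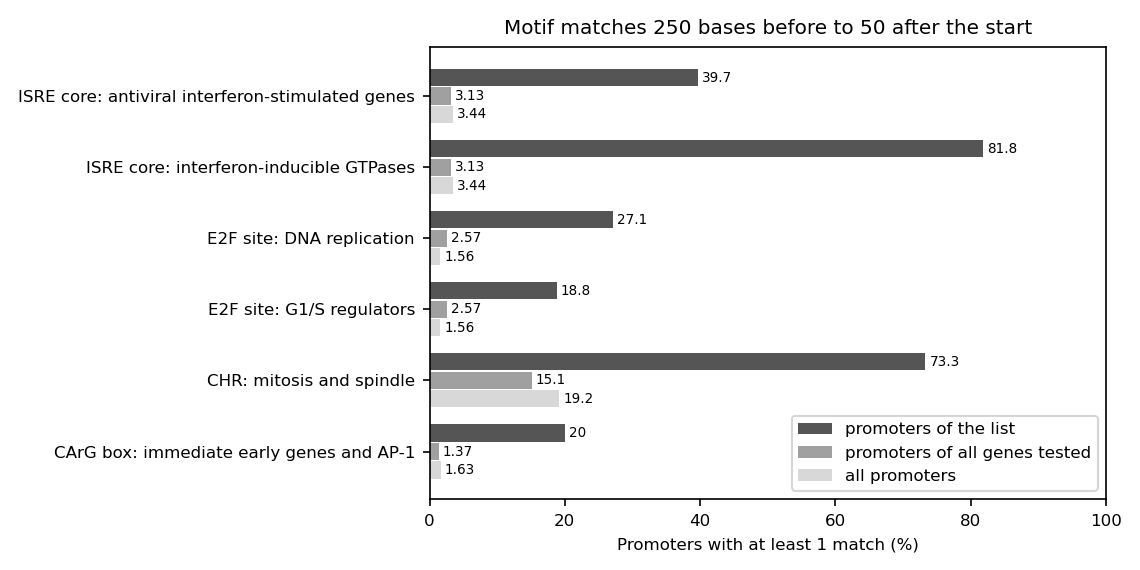
Percentage of promoters with at least 1 match to a motif on either strand, for the promoters of a list, of all genes tested and of all genes in the table. The lists hold 11 to 68 promoters, and each list exceeds its background, as 73.3% against 15.1% for CHR in mitosis genes.

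Antigen processing rose in part. Of 18 genes outside the H2 family, which was not analysed here, 6 were called higher and 2 lower, and 0 were lower without vehicle 3 or any 1 YJ1206 library. B2m, the light chain of MHC class I, had 495, 852 and 642 CPM in vehicle tumors and 1851, 1766 and 1810 CPM in YJ1206 tumors. The lowest YJ1206 library was above the highest vehicle library (log2 fold change 1.45, SE 0.176, adjusted p = 0.00224, edgeR). Tapbp, which loads peptide onto class I, had 122, 122 and 124 CPM against 190, 186 and 191 CPM (log2 fold change 0.62, SE 0.047, adjusted p = 0.000718, edgeR), and the ER chaperone Calr rose by 0.65. Cd74, the class II invariant chain, went from 15.9, 37.3 and 26.9 CPM to 12.6, 13.4 and 14.7 CPM, and its call was lost without vehicle 3 or any 1 YJ1206 library (at most 0.116, edgeR).

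Chemokines and checkpoints were called about as often as all genes. Of 28 chemokine genes 4 were called higher and 3 lower (14.3% and 10.7%, against 11.9% and 14.9% of all genes). Without vehicle 1, vehicle 3, YJ1206 1 or YJ1206 3, 2 were higher, and the number lower was 0 or 1 without vehicle 3 or any 1 YJ1206 library and 9 without vehicle 2. Cx3cl1, which attracts monocytes and T cells, rose from 11.3, 10.6 and 12.3 CPM to 19.6, 16 and 18.1 CPM (edgeR log2 fold change 0.65, adjusted p = 0.00709). Cxcl10 was near the limit of detection, at 0.586, 1.24 and 0.517 CPM against 1.86, 2.82 and 1.44 CPM. Its call (adjusted p = 0.0488) was lost without any 1 library but vehicle 2 (at most 0.164, edgeR). Of 21 checkpoint genes 2 were called higher and 4 lower, and 1 or 2 were lower without any 1 library but vehicle 2. The number higher was 0 without vehicle 3, YJ1206 2 or YJ1206 3, 1 without YJ1206 1 and 5 without vehicle 2. Cd47, the signal that stops phagocytosis, had 187, 191 and 178 CPM against 124, 128 and 130 CPM (log2 fold change -0.54, SE 0.053, adjusted p = 0.00129, edgeR). Cd274, which encodes PD-L1, had 5.77, 6.79 and 4.14 CPM against 9.83, 7.96 and 7.22 CPM and was not called (adjusted p = 0.0825, edgeR). Of 28 genes for NF-κB subunits, inhibitors and cytokines 4 were called higher and 6 lower, with a median of -0.16 that turned to 0.07 with vehicle 2 as the only control. Without vehicle 3 or any 1 YJ1206 library 1 or 2 were higher, without vehicle 3, YJ1206 2 or YJ1206 3, 3 were lower, and without vehicle 2, 12 were lower. Vcam1, an adhesion molecule for leukocytes, rose by 1.32 (adjusted p = 0.00851, edgeR).

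Some genes of luminal prostate epithelium rose. Of 27 tested genes of prostate luminal identity and hormone response 9 were called higher and 3 lower, with a median of 0.19, and 1 was lower without vehicle 3 or any 1 YJ1206 library. Without vehicle 3, 5 were called higher. Cldn4, a tight junction protein, rose from 28.4, 36.5 and 30.1 CPM to 91.8, 74.3 and 81.5 CPM (edgeR log2 fold change 1.38, adjusted p = 0.000949). Psca and Acpp, a surface antigen and the acid phosphatase of the prostate, rose by 1.34 and 1.64, and the epithelial factor Elf3 by 1.22. Krt8 gave a log2 fold change of 0.26 (adjusted p = 0.0562, edgeR). Of 11 tested markers of prostate epithelium 3 were called higher and 0 lower.

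**Figure D4:**
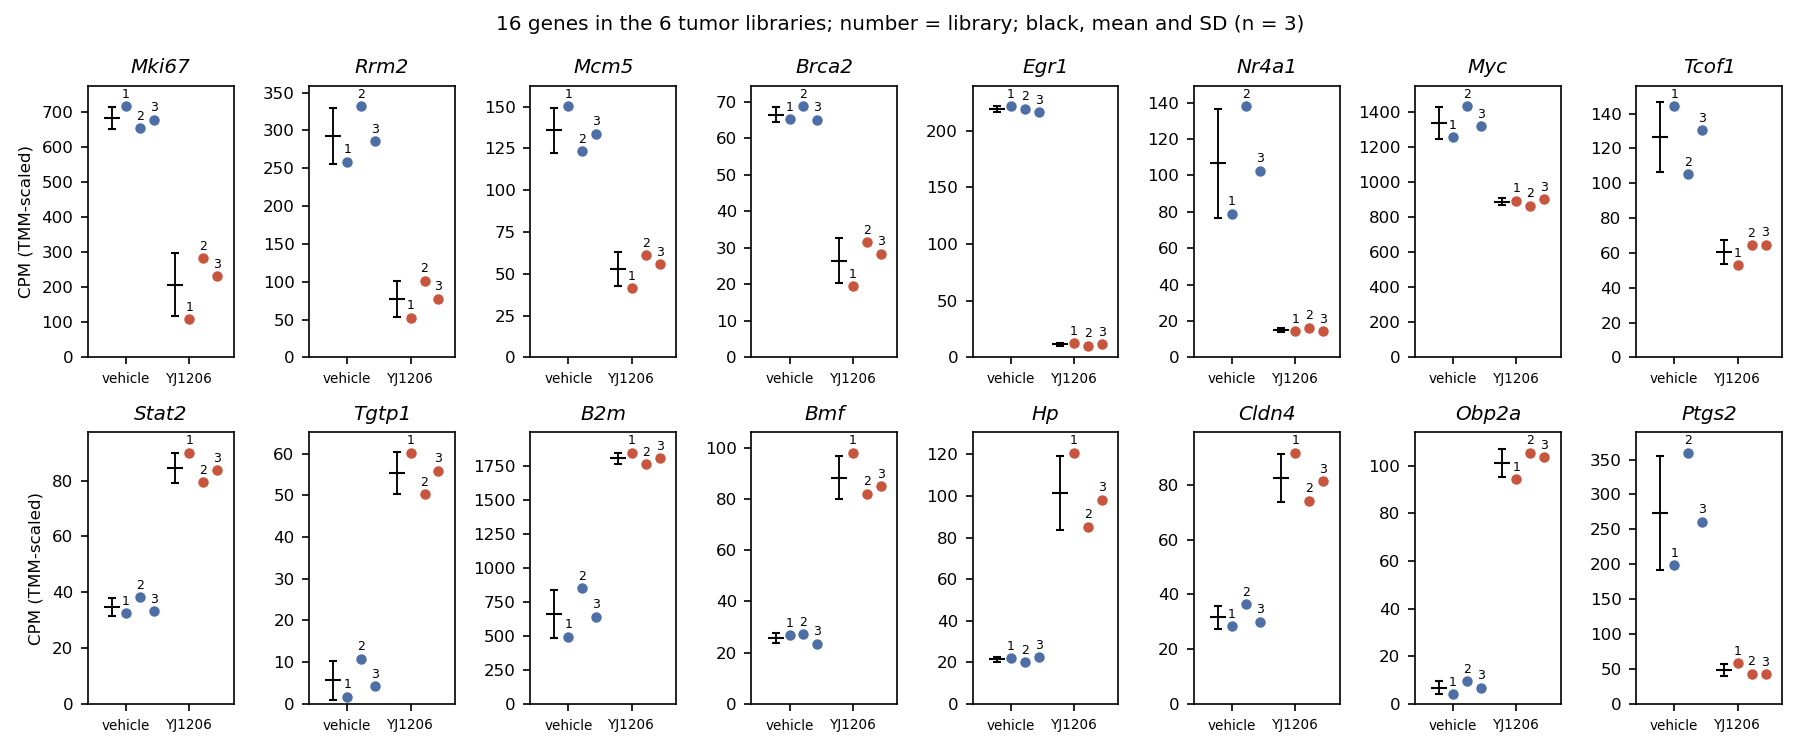
CPM of 16 genes in each tumor library on linear axes from 0, with the library number above each point and the group mean with SD (n = 3) in black. In none of these genes do the groups overlap, and Egr1 goes from 219 ± 2.68 to 11.6 ± 1.17 CPM.

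The 12 largest increases were taken among called genes with a mean of at least 5 CPM over the 6 libraries, a level that several reached only through the YJ1206 tumors. Each was under 1 CPM in all 3 DMSO cultures of Myc-CaP, a table scaled separately from the tumors. Genes chosen for a large increase start low, so nothing is read from this count. Obp2a (ENSMUSG00000062061.3, chr2:25700043-25703326, forward strand), an odorant-binding lipocalin, led with 3.97, 9.68 and 6.85 CPM in vehicle tumors and 94.4, 106 and 104 CPM in YJ1206 tumors. The YJ1206 libraries were alike, and the log2 fold change was 3.88 (SE 0.273, adjusted p = 0.000629, edgeR), or 14.7-fold. Hp, which encodes the acute-phase protein haptoglobin, had 22, 20.2 and 22.4 CPM against 121, 85.3 and 98.2 CPM (log2 fold change 2.24, SE 0.133, adjusted p = 0.00055, edgeR). Gabrp, a GABA receptor subunit of epithelia, rose by 2.46, and Tmprss6, a membrane serine protease, by 2.68.

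Other genes of this group varied more between vehicle libraries. Lcn2, an iron-scavenging lipocalin, had 22.6, 113 and 58.1 CPM against 250, 376 and 330 CPM, and the kallikrein gene Klk1b11, one of a family of close copies, had 0.496, 3.90 and 2.91 CPM against 14.6, 16.6 and 16 CPM. In both genes vehicle 2 was the vehicle library nearest to the YJ1206 tumors. The calls of Lcn2 and Eps8l1 were lost without vehicle 3, YJ1206 2 or YJ1206 3 (adjusted p at most 0.0815, edgeR). Sult1e1, Eps8l1, Gm17416 and Gm12886 rose by 2.20 to 2.56 on the log2 scale, and Tgtp1 is also in the group. The call of Gm12886 was lost without vehicle 3 or any 1 YJ1206 library (at most 0.135, edgeR).

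Of 15461 tested genes found in both tables, 29.2% were under 1 CPM in the cultures. Among all genes called higher 22.5% were, and among genes called lower 7.54% were. Genes under that level in culture had a median log2 fold change of 0.15 in the tumors, and the others -0.03.

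The 12 largest decreases were genes expressed in muscle, and 11 of them were under 1 CPM in the cultures. Ttn, which encodes titin, had 1791, 95.8 and 1108 CPM in vehicle tumors and 13.9, 12.3 and 13.7 CPM in YJ1206 tumors. Acta1, skeletal actin, had 240, 5.18 and 144 CPM against 1.91, 0.805 and 1.19 CPM. Both follow the muscle sums given above, with vehicle 2 far under vehicle 1 and 3. All 15 tested muscle markers were called lower, with a median of -4.35, and 8, 4, 3 and 2 were called without vehicle 3 and YJ1206 1, 2 and 3. With vehicle 2 as the only control 8 were called lower and the median was -1.33. Ckm, muscle creatine kinase, had 68.8, 4.20 and 44.3 CPM against 4.48, 3.36 and 5 CPM, and its log2 fold change went from -3.19 to 0.02 with vehicle 2 alone.

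Among leukocyte markers, most calls were of macrophages and monocytes. The summed level of 10 pan-leukocyte markers was 345 to 369 CPM with vehicle and 409 to 453 CPM with YJ1206. These ranges did not overlap. In 5 of the 10 every YJ1206 library was above every vehicle library, against 21.8% of all genes, and in 0 every one was below. Of the 10, 1 was called, higher (10.0%, against 11.9% of all genes). Macrophage and monocyte markers summed to 647 to 843 CPM against 822 to 1095 CPM, overlapping ranges, and 9 of 19 were called higher and 0 lower. The number called higher was 4 without vehicle 3, YJ1206 2 or YJ1206 3. Leaving out vehicle 2 gave 10 higher and 2 lower. Apoe, a lipid carrier that macrophages secrete, had 167, 156 and 159 CPM against 222, 345 and 298 CPM (edgeR log2 fold change 0.84, adjusted p = 0.0068). Itgam, which encodes CD11b, rose by 0.63 and the complement gene C1qb by 0.63. The general macrophage markers Adgre1, Cd68 and Csf1r had overlapping groups and were not called, with log2 fold changes of 0.49, 0.41 and 0.13 (adjusted p = 0.074, 0.15 and 0.751, edgeR). Apoe and C1qb are also expressed outside macrophages.

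T cell RNA was close to the floor. Cd3e had 2, 11 and 6 counts with vehicle and 1, 5 and 7 with YJ1206, and Ifng had 0 counts in all 6 libraries. At this depth 0 counts allow up to 0.194 CPM of Ifng in a library, so a change under that level was not detectable. Of the 7 T cell markers that could be tested, Cd8a, also found in dendritic cells, was called higher, at 3.29, 4.95 and 3.75 CPM against 7.10, 6.31 and 6.80 CPM. Its call (adjusted p = 0.021) was lost without vehicle 3 or any 1 YJ1206 library (at most 0.0845, edgeR). Of the cytotoxic markers 2 of 15 could be tested, of B cell markers 1 of 10, and of dendritic cell markers 7 of 12, and 0 were called by edgeR, nor did any pass the unadjusted test in libraries 1 and 2. Of 10 neutrophil markers tested 1 was called, lower, and 0 were without any 1 library but vehicle 2, with sums of 24.2 to 29.8 CPM against 20.3 to 22.6 CPM. Keratinocyte markers were all outside the test, and Krt1 had 0 or 1 count per library.

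Stromal lists changed sign with the vehicle library used. Fibroblast markers summed to 889 to 2470 CPM with vehicle and 646 to 1482 CPM with YJ1206, overlapping ranges, and 2 of 16 were called higher and 1 lower. Without vehicle 2, 7 were lower and the median was -0.76, and without vehicle 3, YJ1206 2 or YJ1206 3, 0 were higher. The median of the list with all libraries was -0.52, and 0.22 with vehicle 2 as the only control. Collagens changed sign in the same way, from -0.22 to 0.21, with 6 of 32 called higher and 5 lower. So did matrix genes, from -0.16 to 0.18, with 6 of 38 higher and 7 lower. The shares called higher and lower were 18.8% and 15.6% for collagens, and 15.8% and 18.4% for matrix genes. Over all genes they were 11.9% and 14.9%. Without vehicle 3 or YJ1206 3, 3 collagens and 3 matrix genes were higher and 3 matrix genes lower, and without vehicle 2, 9 and 15 were lower. Without YJ1206 2, 3 matrix genes were higher. Some matrix genes kept their direction with either control. Col6a3 had 104, 92.6 and 108 CPM against 49.0, 55.0 and 57.0 CPM (log2 fold change -0.92, and -0.79 with vehicle 2 alone). Timp1, an inhibitor of matrix proteases, had 34.8, 34.2 and 32.6 CPM against 13.4, 14.6 and 15.2 CPM (-1.23, and -1.25 with vehicle 2 alone). Col11a2 rose by 1.16 and the laminin chains Lamb1 and Lamb2 by 0.63 and 0.73, with no overlap.

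Of 16 endothelial markers 1 was called higher and 0 lower, and of 26 angiogenesis genes 1 was higher and 0 lower. Red cell markers were lower in every YJ1206 library, with sums of 1283, 1715 and 1426 CPM against 422, 1115 and 853 CPM, but 0 of 5 were called by edgeR. Without YJ1206 2, 3 were called lower, as were 3 with the replicate number as a block, 2 with no filter and 1 by DESeq2. At an unadjusted p under 0.05 in libraries 1 and 2, 0 of the 5 passed. Hbb-bs, a beta globin gene, had 556, 748 and 624 CPM against 177, 483 and 366 CPM (adjusted p = 0.076, edgeR). Of 6 tested adipocyte markers 1 was called higher and 1 lower, the latter Car3, which muscle also expresses.

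**Figure D5:**
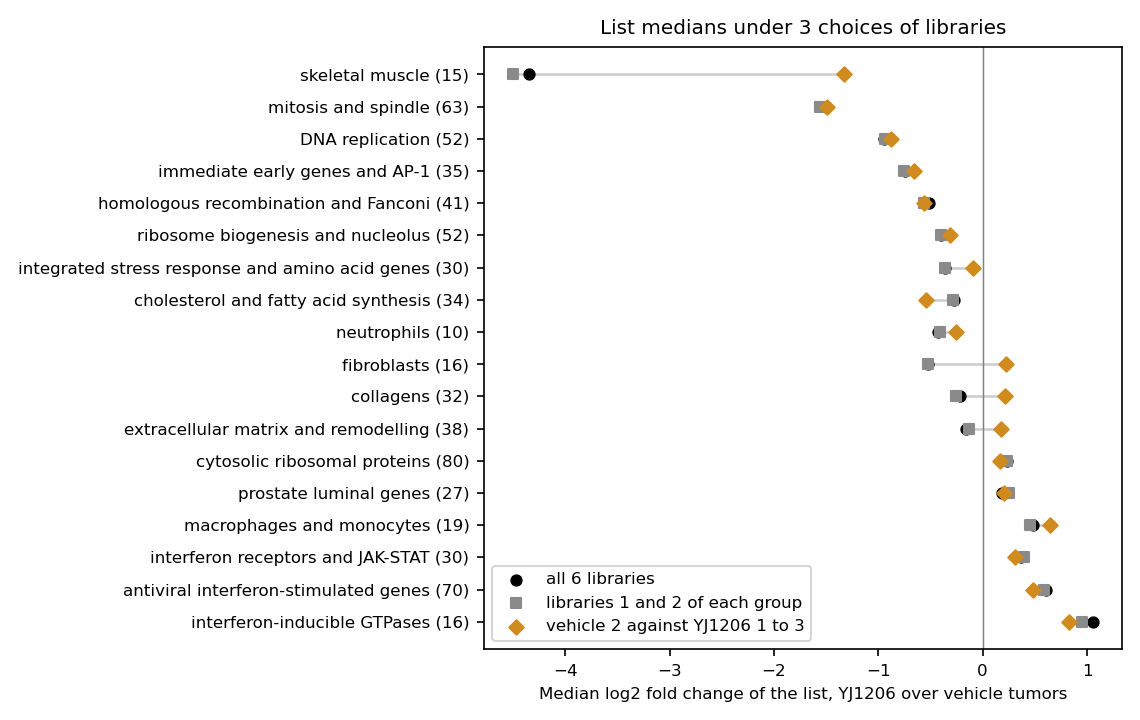
Median log2 fold change of 18 gene lists with all 6 libraries, with libraries 1 and 2 of each group, and with vehicle 2 against the 3 YJ1206 libraries. The mitosis median stays between -1.56 and -1.49, whereas fibroblasts go from -0.52 to 0.22 and skeletal muscle from -4.35 to -1.33.

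Of 344 Zfp zinc finger genes 28 were called higher and 24 lower (8.14% and 6.98%, under the shares of all genes). Without vehicle 3 the counts were 9 and 8, without YJ1206 3 they were 5 and 5, without YJ1206 2 they were 18 and 12, and 15, 16 and 44 were higher without YJ1206 1, vehicle 1 and vehicle 2. Of 23 Id genes and TGF-β or BMP targets 3 were higher (1 without vehicle 3, YJ1206 1 or YJ1206 3) and 2 lower, among them Tgfb3, up by 0.56, and Tgfb1, down with a log2 fold change of -0.40 and no call without vehicle 3 or YJ1206 3 (adjusted p at most 0.0611, edgeR). Gene span, read from GENCODE vM21 because CDK12 loss is known for its effect on long genes, bore no steady relation to the change. In 5 groups of 2943 protein-coding genes each, from the shortest to the longest, 14.3%, 15%, 16.4%, 18.9% and 13.3% were called lower, and the median log2 fold changes lay between -0.02 and 0.03. The longest group held genes over 67.8 kb.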

How the data were processed

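RNA-seq of 6 libraries from subcutaneous tumors was analysed. Per the submitters' processing notes, the authors quantified reads with kallisto against GRCm38 (mm10), and the deposited estimated counts per gene were not scaled between libraries. The deposited TPM, made by the authors from the same quantification, served as an alternative. Neither the kallisto version nor the annotation release is given in the sources used here. Estimated counts were rounded, filtered with filterByExpr and scaled by TMM. YJ1206 was tested against vehicle with edgeR 4.0.16 (glmQLFit and glmQLFTest, R 4.3.3) and Benjamini-Hochberg adjustment at 0.05. CPM and TPM values carry counting error as well as the spread between libraries, and the biological coefficient of variation was 0.139.

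Members and gene lists were chosen with earlier results of these data known. Genes named were fixed anchors of each list, up to 4 called members with the largest change and a mean of at least 5 CPM, and over all genes the 12 largest increases and decreases without overlap. Counts of markers below the filter, given for the label check, follow the marker lists. Alternatives were DESeq2 1.42.0, RLE factors, total counts, no filter, limma 3.58.1 on log2(TPM + 1) and log2(TPM + 0.1), a replicate block, and fits with libraries left out. DESeq2 on libraries 1 and 2, and vehicle 2 as the only control, were added after the data were seen. With vehicle 2 alone the lone library is assumed to vary like the YJ1206 libraries. Tests were checked on simulated data. They recovered 34.3%, 89.6% and 95.5% of genes simulated with 1.5-fold, 2-fold and 4-fold changes, with 7 false calls. How the tests behave where a library is near a weighted sum of the others in its group was not tested. Cultured samples were used only for DMSO levels. Some genes that the rule names are not reported here.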

Additional observations from a re-analysis of the deposited data

How the results depend on the processing

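Of 4176 genes called with all 6 libraries, 44.4% were higher. Leaving out 1 library gave 1877 (without YJ1206 3) to 5724 (without vehicle 2) calls. Libraries 1 and 2 of each group gave 1 call in edgeR and 1228 in DESeq2, and vehicle 2 as the only control gave 2635. RLE factors, total counts, no filter and DESeq2 on all libraries gave 4190, 4217, 4032 and 4344 calls. On log2(TPM + 1) and log2(TPM + 0.1), limma called 3654 and 3637, of which 34.5% were higher with the first pseudocount. The alternative fits reuse the libraries that gave the calls, so a kept direction is no independent support. Every gene called with all 6 libraries kept its direction under DESeq2, both other scalings and no filter. With either TPM pseudocount 4172 of 4176 did, and with vehicle 2 alone 4171. Among named genes, the Cdk13 log2 fold change turned to -0.0994 and -0.1015 with the 2 TPM pseudocounts and the Mdm2 log2 fold change to -0.0013 with either, neither gene being called, and the Ckm log2 fold change turned to 0.017 with vehicle 2 alone. The Csf1r log2 fold change, not called, turned to -0.0677 without vehicle 2 and -0.1154 without YJ1206 2, and ranged up to 0.3088 without YJ1206 1. Of 191 called named genes, 123 kept the call without any 1 library and 68 lost it without at least 1. Named genes were chosen partly for large changes. Of all 4176 called genes, 46.1% kept the call without vehicle 3 and 44.6% without YJ1206 3. The cause of these differences was not tested. With the replicate number as a block 3477 genes were called. Deviations of same-numbered libraries from their group means correlated at -0.00366, -0.0142 and 0.000765. In these deviations no vehicle library correlated best with the YJ1206 library of its own number. Library 3 of each group is near a weighted sum of libraries 1 and 2, so this cannot decide whether the samples were paired. At this depth genes under 0.194 CPM could not be told from absent.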
